A study of Mus musculus with 24 samples.

Results

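The MHC class I presentation genes examined here are 10 genes read by symbol from the Ensembl identifiers of a read-count table: the heavy chains H2-K1, H2-D1 and H2-Q10, the light chain B2m, the peptide transporter subunits Tap1 and Tap2, the loading factor Tapbp, the proteasome subunits Psmb8 and Psmb9, and the transcriptional activator Nlrc5. All 10 of them were found among the 55536 genes of the table, and all 10 were among the 14076 genes that passed the filter on low counts. H2-Q10 was chosen by its lower level on the high-fat diet in these same libraries, so its differences between diet and metformin groups are given as a description with no test.

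The libraries were made from whole distal small intestine (ileum) of 24 C57BL/6N mice, which entered the study at 4 to 5 weeks of age. CD animals ate a control diet with 10% of energy from fat and HFD animals a high-fat diet with 60% of energy from fat, in both cases without metformin. CDmetf and HFDmetf animals ate the same diets and, after 20 weeks of diet, received metformin in the drinking water at 50 mg/kg per day for 10 weeks. Each group held 6 animals, 3 females and 3 males, and only 1 animal of each cage was sequenced. A library is named below by its group, its labelled sex (F or M) and its replicate number, for example CD F1.

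MHC class I molecules carry peptides from inside the cell to its surface, where CD8 T cells and natural killer cells read them. The proteasome cuts proteins into peptides, the TAP1/TAP2 transporter moves these into the endoplasmic reticulum, and tapasin (Tapbp) helps to place them on a heavy chain paired with beta-2-microglobulin. Interferon-gamma raises the whole set, exchanges constitutive proteasome subunits for the immunoproteasome subunits Psmb8 and Psmb9, and induces Nlrc5, an activator that works at class I promoters. In the intestine the surface epithelium and the lymphoid and myeloid cells below it all express class I molecules.

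The libraries held 1829690 to 40606442 reads assigned to genes (median 3467310), so a floor of 3 reads corresponded to 0.0705 to 1.71 CPM. CPM are reads per 1000000 assigned reads, with library sizes scaled by edgeR's TMM factors. Epithelial markers were high in all libraries, with summed levels of 4367 to 11723 CPM over 6 markers, and the sum of 8 B-cell markers ranged from 6.03 to 368 CPM. In CD M3 the 10 most abundant genes took 85.4% of the reads, against 9.22% to 36.6% in the other libraries. HFD M2 held 3355 Xist reads and 0 Y-linked reads, and HFD F2 held 1 Xist read and 423 Y-linked reads, so both libraries went against their labelled sex. Counts of members in each comparison are also given without these 3 libraries.

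The promoters of the heavy chains and B2m are shown first because they hold the elements through which these genes are known to be regulated together, and because H2-Q10 differs there from its relatives. RefSeq promoter windows (GRCm38.p6, 250 bases before to 50 bases after the start) were matched for 8 of the 10 genes. Capitals mark matches, on either strand, to GGGNNNNNCCC (the form of a kappa B site), GAANNGAAA or GAANNNGAAA (the form of an interferon response element), TGACG (the core of a cyclic AMP response element) and ATTGG, which is the CCAAT box read on the other strand. The H2-K1 stretch lies at chr17:34000353-34000473 on the minus strand, the H2-Q10 stretch at chr17:35469898-35470021 on the plus strand and the B2m stretch at chr2:122147531-122147641 on the plus strand. Of H2-D1 the first 30 bases from the kappa B form onwards are printed, at chr17:35262923-35262952 on the plus strand, since a GENCODE M21 transcript counts this stretch as exon.
H2-K1: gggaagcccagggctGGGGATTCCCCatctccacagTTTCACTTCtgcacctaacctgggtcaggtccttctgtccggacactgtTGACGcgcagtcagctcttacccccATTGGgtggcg
H2-D1: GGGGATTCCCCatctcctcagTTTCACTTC
H2-Q10: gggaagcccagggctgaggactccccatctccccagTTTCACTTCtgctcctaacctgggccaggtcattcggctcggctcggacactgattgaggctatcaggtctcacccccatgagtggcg
B2m: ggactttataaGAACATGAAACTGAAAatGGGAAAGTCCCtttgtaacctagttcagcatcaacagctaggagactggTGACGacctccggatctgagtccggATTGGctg

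H2-K1, H2-D1 and B2m each held a kappa B form, an interferon response form, TGACG and ATTGG in their windows. H2-Q10 held an interferon response form and had no match to the kappa B form, TGACG or ATTGG in its 300-base window. The H2-K1 and H2-Q10 stretches were identical at 89.0% of 118 aligned bases, and the H2-K1 and H2-D1 stretches at 90.9% of 121. The windows of Tap1 and Psmb9, which overlap each other, held the kappa B form, TGACG and ATTGG. Tapbp held ATTGG only, and Psmb8 held none of the forms. Among 27025 promoter windows of the same length, 13.8% held the kappa B form, 7.56% GAANNGAAA, 7.90% GAANNNGAAA, 21.02% TGACG and 37.9% ATTGG. A match describes letters and does not show that a factor binds.

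8 of the 10 genes lie on chromosome 17 (GRCm38), and Psmb9, Tap1, Psmb8 and Tap2 follow one another within 34335 bases at chr17:34181987-34216321. Psmb9 and Tap1 are read in opposite directions and overlap by 212 bases, and whether the counting used strand is not given in the sources used here. H2-K1 lies at chr17:33996017-34000347, H2-D1 at chr17:35262730-35267499 and H2-Q10 at chr17:35470089-35474563. B2m lies at chr2:122147686-122153083 and Nlrc5 at chr8:94434356-94527272. The coding sequences of H2-K1 and H2-D1 were identical at 91.5% of aligned bases and those of H2-D1 and H2-Q10 at 89.6%. Of the 50-base windows of one transcript each, 8.79% in H2-K1, 14.3% in H2-D1 and 11.0% in H2-Q10 occurred exactly in transcripts of another gene, and for Tapbp this share was 21.03%. The table keeps reads with several mapping places in a row of their own, so the heavy-chain counts rest on the sequence that tells them apart, and levels of these close relatives are uncertain to that extent.

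Per kilobase of exon, the mean level over 24 libraries was 854 CPM for B2m, 165 for H2-K1, 140 for H2-D1 and 58.9 for Tapbp. Tap1 followed with 4.27 CPM per kilobase, Tap2 with 4.09, Psmb8 with 3.08 and Psmb9 with 2.66. Nlrc5, at 0.856, and H2-Q10, at 0.756 CPM per kilobase, were the lowest of the 10. B2m, H2-K1, H2-D1 and tapasin stood above the transporter, the immunoproteasome subunits and the activator on this per-length scale.

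**Figure D1:**
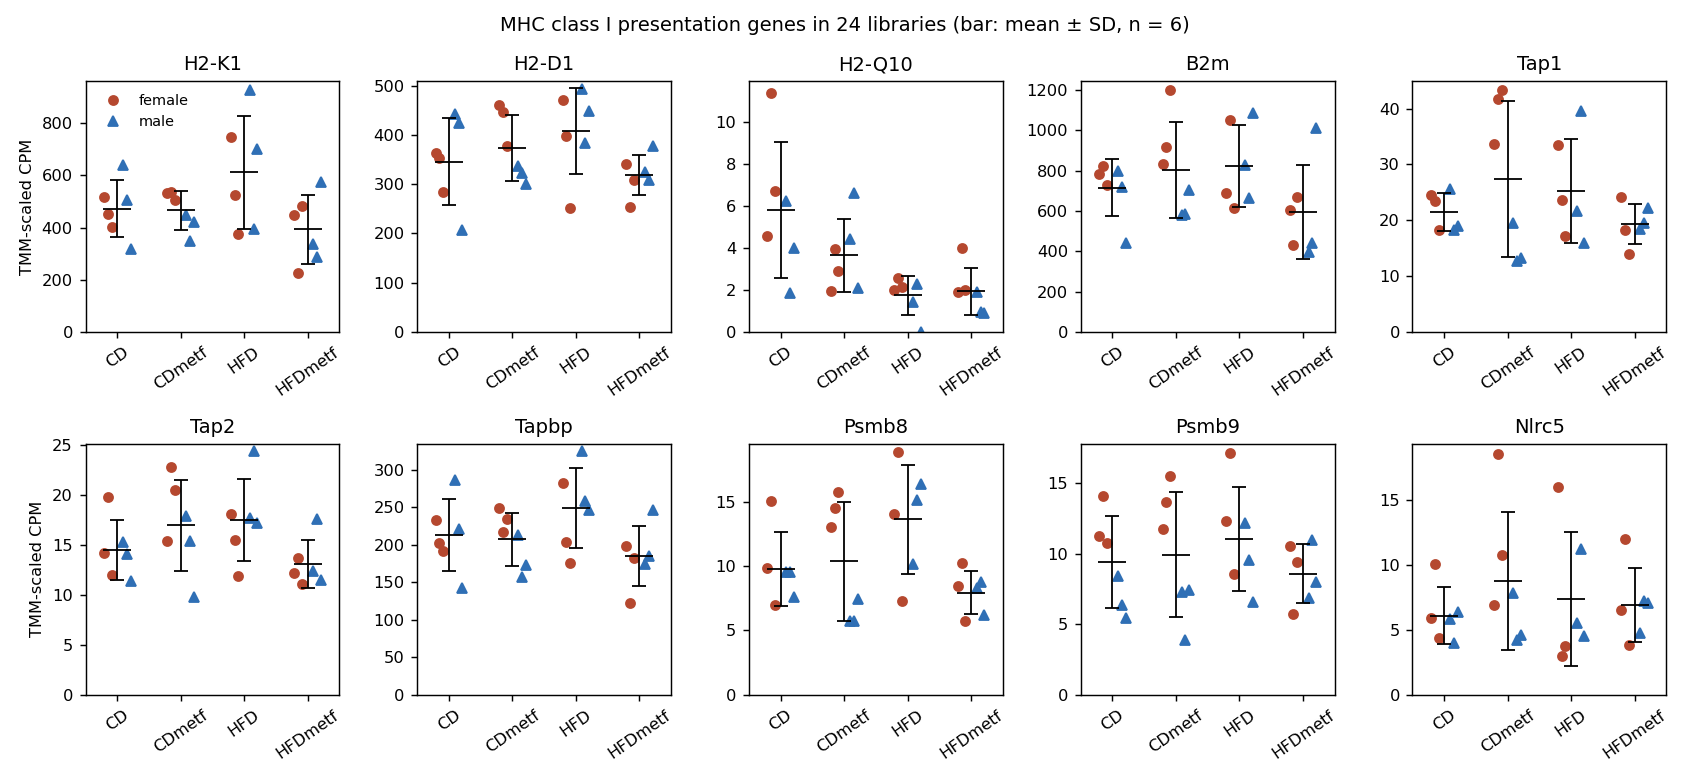
TMM-scaled CPM (y axes, from 0) of the 10 genes in the 4 groups (x axes), with 1 point per library, circles for labelled females, triangles for labelled males, and a bar with whiskers for the mean ± SD of 6 libraries. H2-K1 spanned 377 to 927 CPM in HFD and 225 to 576 CPM in HFDmetf, the groups overlapped for every gene, and H2-Q10 stayed at or below 2.57 CPM in HFD.

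H2-K1 and H2-D1 encode the classical heavy chains of this strain. H2-K1 ranged from 319 to 640 CPM in CD (median 479), from 350 to 537 in CDmetf (median 477), from 377 to 927 in HFD (median 612) and from 225 to 576 in HFDmetf (median 394). HFD M1 was the highest library and HFDmetf F2 the lowest, and the ranges of all 4 groups overlapped. Of the 4 group comparisons, HFDmetf vs. HFD gave the largest difference of H2-K1 (logFC = −0.62 ± 0.22 SE; FDR = 0.640). H2-K1 was lower in HFDmetf in 5 of 6 comparisons of animals with the same labelled sex and number. In HFD vs. CD it was higher by less than 2 standard errors (logFC = 0.34 ± 0.22; FDR = 1.00). In a piece of tissue, fewer cells of a type and less RNA per cell cannot be told apart, here and for all genes below.

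H2-D1 ranged from 208 to 441 CPM in CD (median 358), from 300 to 461 in CDmetf (median 357), from 251 to 494 in HFD (median 423) and from 253 to 377 in HFDmetf (median 316). CD M3 was the lowest library of all, and it was also the lowest CD library for H2-K1, B2m, Tap2, Tapbp and Psmb9. The groups overlapped throughout. The difference was −0.33 ± 0.17 in HFDmetf vs. HFD (FDR = 0.640) and 0.24 ± 0.17 in HFD vs. CD (FDR = 1.00). Without CD M3 the HFD vs. CD value was 0.14.

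H2-Q10 encodes a class I heavy chain that is secreted and is known mainly from the liver. It was read 0 to 128 times per library. Its level was 1.86 to 11.4 CPM in CD (median 5.42), 1.96 to 6.61 in CDmetf (median 3.43), 0 to 2.57 in HFD (median 2.09) and 0.885 to 3.98 in HFDmetf (median 1.90). The medians of both high-fat groups lay below those of both control-diet groups, and the CD and HFD ranges overlapped only through CD M2. HFD M3 gave 0 reads, which at its depth allows a level of up to 1.23 CPM, and this library also had the lowest sum of the ileal markers Fabp6 and Slc10a2, at 5.72 CPM. The fitted difference was −1.67 ± 0.39 in HFD vs. CD, −0.93 ± 0.41 in HFDmetf vs. CDmetf, −0.67 ± 0.37 in CDmetf vs. CD and 0.06 ± 0.42 in HFDmetf vs. HFD. Without CD M3, HFD M2 and HFD F2 the HFD vs. CD value was −1.71 ± 0.49, and without HFD M3 it was −1.51. Comparisons with a group in common share its libraries and are not separate evidence.

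The 5 hepatocyte markers summed to 2.67 to 5.36 CPM in CD, 3.33 to 6.61 in CDmetf, 0.988 to 8.14 in HFD and 2.41 to 9.67 in HFDmetf. Ttr was above 0 in all libraries (median 2.84 CPM), whereas Alb was at 0 in 13 libraries, Ahsg in 18, Serpina1a in 6 and Apoh in 5. The highest H2-Q10 library of HFDmetf, F2, also had the highest hepatocyte sum, and the part of the hepatocyte sum in the H2-Q10 level was not tested.

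B2m, the light chain shared by the class I heavy chains, ranged from 444 to 825 CPM in CD (median 757), from 580 to 1203 in CDmetf (median 769), from 616 to 1087 in HFD (median 758) and from 397 to 1013 in HFDmetf (median 523). In HFDmetf 5 of 6 libraries stood at or below 672 CPM and HFDmetf M3 stood alone at 1013. The groups overlapped. B2m was lower in HFDmetf vs. HFD (logFC = −0.50 ± 0.23; FDR = 0.640) and in HFDmetf vs. CDmetf (logFC = −0.44 ± 0.23; FDR = 0.651). In HFD vs. CD it was 0.19 ± 0.23 (FDR = 1.00), and without CD M3, HFD M2 and HFD F2 it was −0.08 ± 0.26.

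Tap1 and Tap2 form the peptide transporter. Tap1 ranged from 18.3 to 25.6 CPM in CD (median 21.2), from 12.6 to 43.4 in CDmetf (median 26.6), from 15.9 to 39.5 in HFD (median 22.6) and from 13.9 to 24.2 in HFDmetf (median 18.96). The groups overlapped, and the spread in CDmetf was the widest, with an SD of 14.03 CPM against 3.35 in CD. Tap1 differed by −0.46 ± 0.27 in HFDmetf vs. CDmetf (FDR = 0.661) and by 0.31 ± 0.26 in CDmetf vs. CD (FDR = 0.970). Without CDmetf F3 these values were −0.20 ± 0.24 and 0.04 ± 0.24, and with the summed B- and T-cell marker level in the fit they were −0.07 ± 0.23 and −0.10 ± 0.22.

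Tap2 ranged from 11.3 to 19.8 CPM in CD (median 14.1), from 9.79 to 22.7 in CDmetf (median 16.6), from 11.9 to 24.4 in HFD (median 17.4) and from 11.0 to 17.6 in HFDmetf (median 12.3). It was lower in HFDmetf than in HFD in 6 of 6 comparisons of animals with the same labelled sex and number, although the ranges overlapped. HFD F2 and HFD M2, which went against their labelled sex, are paired here by label. HFD F2 (15.4 CPM) stood below HFDmetf M2 (17.6 CPM), a library labelled male. The differences were −0.41 ± 0.17 in HFDmetf vs. HFD (FDR = 0.640) and −0.38 ± 0.17 in HFDmetf vs. CDmetf (FDR = 0.627). Without CDmetf F3 the latter was −0.22 ± 0.16, and with the B- and T-cell marker term −0.18 ± 0.16.

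Tapbp, the bridge between the transporter and the empty heavy chain, ranged from 142 to 286 CPM in CD (median 212), from 158 to 249 in CDmetf (median 215), from 176 to 325 in HFD (median 253) and from 123 to 246 in HFDmetf (median 184). As for H2-K1, HFD M1 was the highest library and HFDmetf F2 the lowest. The HFDmetf vs. HFD difference was −0.41 ± 0.16 (FDR = 0.640). The groups overlapped.

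Psmb8 and Psmb9 are the interferon-inducible subunits of the immunoproteasome. Psmb8 ranged from 6.98 to 15.1 CPM in CD (median 9.56), from 5.71 to 15.8 in CDmetf (median 10.2), from 7.31 to 18.8 in HFD (median 14.6) and from 5.69 to 10.2 in HFDmetf (median 8.35). In HFD 5 of 6 libraries stood at or above 10.1 CPM, and in HFDmetf 5 of 6 stood at or below 8.79 CPM. Psmb8 had the largest HFDmetf vs. HFD difference among the 10 genes (logFC = −0.77 ± 0.26; FDR = 0.640). It was lower in 6 of 6 comparisons by labelled sex and number. Without CD M3, HFD M2 and HFD F2 Psmb8 differed by −0.71 ± 0.31. In HFD vs. CD it was higher in 6 of 6 such comparisons (logFC = 0.48 ± 0.25; FDR = 1.00).

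Psmb9 ranged from 5.43 to 14.1 CPM in CD (median 9.59), from 3.91 to 15.5 in CDmetf (median 9.60), from 6.54 to 17.1 in HFD (median 10.9) and from 5.69 to 11.0 in HFDmetf (median 8.69). The groups overlapped, and no difference between diet or metformin groups exceeded 1.5 standard errors. The largest was −0.29 ± 0.24 in HFDmetf vs. HFD (FDR = 0.686).

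Nlrc5, the activator, ranged from 3.99 to 10.1 CPM in CD (median 5.86), from 4.21 to 18.5 in CDmetf (median 7.32), from 3.00 to 15.98 in HFD (median 5.00) and from 3.79 to 11.9 in HFDmetf (median 6.81). CDmetf F2, at 18.5 CPM, and HFD F1, at 15.98, were the highest libraries, and they also had the highest B-cell marker sums, at 368 and 279 CPM. Nlrc5 was the only one of the 10 whose sign turned in each diet and metformin comparison when the summed B- and T-cell marker level was added to the fit. With that term it was −0.37 ± 0.23 in HFD vs. CD against 0.30 ± 0.37 without it, and 0.31 ± 0.24 in HFDmetf vs. CDmetf against −0.42 ± 0.38. Without HFD F1 alone, HFD vs. CD was −0.12 ± 0.37. In HFDmetf vs. HFD it was 0.47 ± 0.24 with that term against −0.20 ± 0.38. Nlrc5 is counted with the other genes below by its fitted sign without the term. Without HFD F1 that sign turned in HFD vs. CD, as given, and in HFDmetf vs. HFD (0.19). Without CDmetf F2 it held in CDmetf vs. CD (0.31) and in HFDmetf vs. CDmetf (−0.22).

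**Figure D2:**
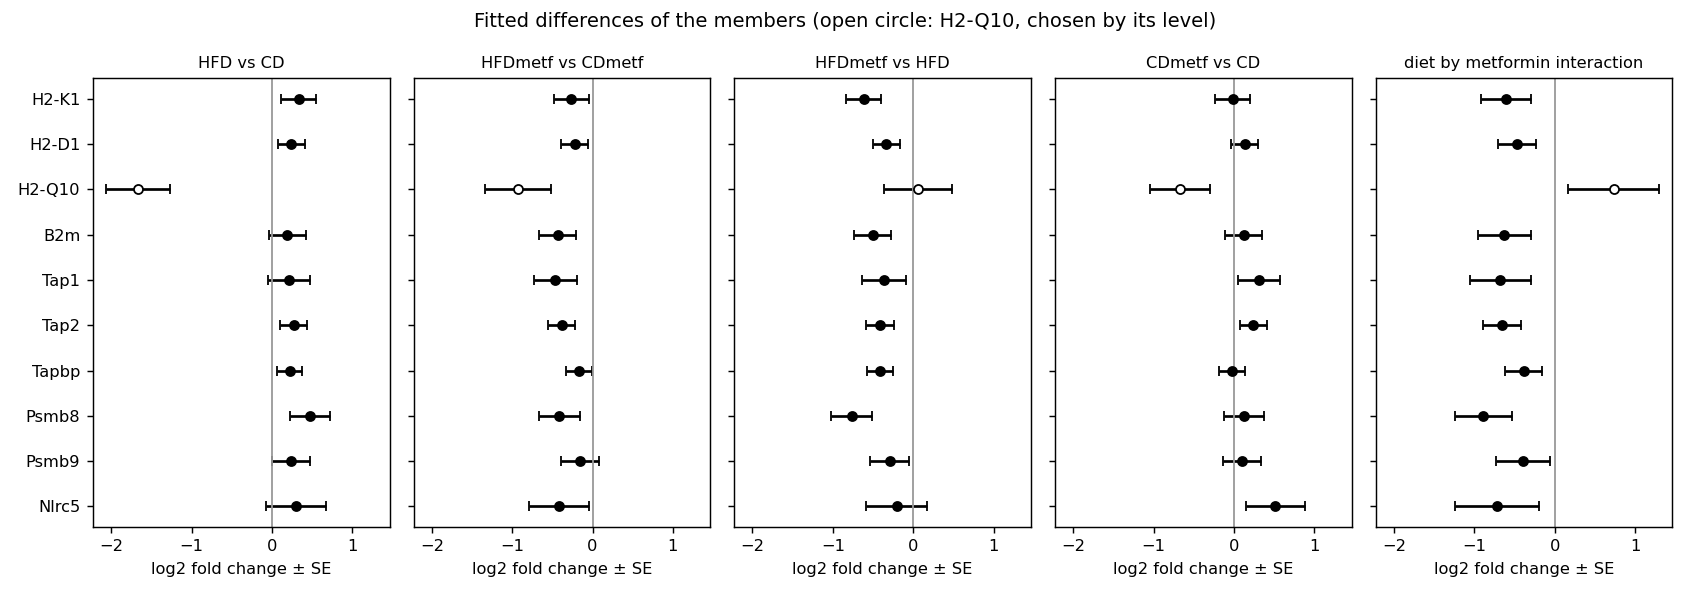
Fitted log2 fold change ± SE (x axis) of each gene (y axis) in the 4 comparisons and in the diet by metformin interaction; the open circle is H2-Q10. Apart from H2-Q10, all points lie above 0 in HFD vs. CD and below 0 in HFDmetf vs. HFD, with Psmb8 farthest from 0 at 0.48 and −0.77.

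The question of the HFD vs. CD comparison was how a high-fat diet alone altered the distal small intestine. None of the 9 genes other than H2-Q10 passed an FDR of 0.05 by edgeR's quasi-likelihood test, as did 0% of all genes tested. At an unadjusted p under 0.05, 0 of the 9 were higher and 0 lower, against 2.59% of all genes higher and 2.04% lower. All 9 had a positive difference, from 0.19 to 0.48 with a median of 0.24, where the median over all genes was −0.005. Without CD M3, HFD M2 and HFD F2 the median of the 9 was 0.16, with 8 positive. With the lymphocyte marker term the median was 0.17, with 7 positive and Tap1 (−0.10) and Nlrc5 (−0.37) negative. Without HFD F3, 2 of the 9 were higher at an unadjusted p under 0.05. In that fit 8.42% of all genes were at that p in either direction, against 4.63% with all animals. Genes lower at that p made up 4.67% of all genes in that fit and 2.04% with all animals. DESeq2 called 0 of the 9 at its own FDR.

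In HFDmetf vs. CDmetf, the same diets under metformin, 0% of genes passed the FDR threshold. All 9 genes were lower, from −0.15 to −0.46 with a median of −0.38, where the median over all genes was 0.03. At an unadjusted p under 0.05, 1 of the 9, Tap2, was lower and 0 were higher, against 4.04% of all genes lower and 3.83% higher. Without CDmetf F3, the CDmetf library highest for Tap1, B2m, Psmb8 and Psmb9, the median was −0.20, and without CDmetf F2 it was −0.22. The count at an unadjusted p under 0.05 was 0 to 3 when single animals were left out (3 without CDmetf M2 or HFDmetf M3, 0 without CDmetf F2 or F3, or HFDmetf F1, F2, F3 or M1). In these fits 2.53% (without HFDmetf F2) to 5.71% (without HFDmetf F3) of all genes were lower at that p. With the lymphocyte marker term the count was 0, the median −0.18 and 8 of the 9 were lower. Without CD M3, HFD M2 and HFD F2 the count was 2, against 5.86% of all genes lower, and the median −0.39. In the 8-group fit described below, 6 of the 9 were at an unadjusted p under 0.05 in females and 0 in males. Of all genes, 6.58% and 6.05% were at that p in either direction. None of the 9, and no difference between the sexes among them, passed the FDR threshold. Tap1 was −1.14 ± 0.28 in females and 0.40 ± 0.29 in males, and Psmb8 −0.93 ± 0.30 and 0.22 ± 0.32. In males H2-K1, B2m and Tap2 were lower and the rest of the 9 higher.

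HFDmetf vs. HFD asked what metformin did on the high-fat diet. Here 0% of genes passed the FDR threshold, and all 9 genes were lower, from −0.20 to −0.77 with a median of −0.41 against 0.03 over all genes. At an unadjusted p under 0.05, 5 of the 9 were lower (H2-K1, B2m, Tap2, Tapbp and Psmb8) and 0 were higher, against 2.82% of all genes lower and 3.79% higher. The 5 hold a heavy chain, the light chain, a transporter subunit, tapasin and an immunoproteasome subunit, and they are not 5 separate observations, since they come from the same libraries. The count was 4 without CD M3, HFD M2 and HFD F2 and 3 without HFD M2 and HFD F2, against 1.98% and 1.36% of all genes lower at that p. It was 3 to 6 when single animals were left out (3 without HFDmetf F2 or HFDmetf M1), with medians of −0.50 to −0.35. In these fits 1.47% (without HFDmetf M1) to 6.44% (without HFDmetf M3) of all genes were lower at that p. With the lymphocyte marker term the count was 3, against 4.12% of all genes lower at that p. The median was −0.33 and 8 of the 9 were lower, with Tap1 at −0.08 and Nlrc5 at 0.47. DESeq2 gave 6 at an unadjusted p under 0.05, against 4.23% of all genes lower, and 0 at its own FDR.

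The medians of some other cell marker sums lay apart between the same groups. No epithelial, macrophage, dendritic-cell or smooth-muscle marker listed was at 0 in any library. The sum of 6 epithelial markers was 7543 to 11723 CPM in HFD (median 10430) and 4367 to 10565 in HFDmetf (median 7919). HFD M1 and HFDmetf F2 were the highest and the lowest library of that sum, as they were for H2-K1 and Tapbp. The sum of 7 macrophage and dendritic-cell markers was 94.2 to 151 CPM in HFD (median 130) and 116 to 245 in HFDmetf (median 174), and that of 5 smooth-muscle markers was 1095 to 1949 CPM (median 1275) and 1171 to 2780 (median 1797). Medians in HFD and HFDmetf were closer for T-cell (20.42 and 20.37 CPM), plasma-cell (798 and 716) and endothelial markers (83.4 and 95.7). All these ranges overlapped, and the part of tissue composition in the lower class I levels of HFDmetf was not tested.

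In CDmetf vs. CD, metformin on the control diet, 0% of genes passed the FDR threshold. Of the 9 genes 7 were higher and 2 lower, from −0.03 to 0.51 with a median of 0.12, and at an unadjusted p under 0.05 there were 0, against 2.74% of all genes higher and 2.41% lower. Without CD M3 the median was 0.03, and without CD M3, HFD M2 and HFD F2 it was 0.02. With the lymphocyte marker term it was −0.03, with 3 genes higher and 6 lower.

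The diet by metformin interaction compares the metformin difference on the high-fat diet with that on the control diet. It was negative for all 9 genes, from −0.38 to −0.89 with a median of −0.63, and 0% of genes passed the FDR threshold. At an unadjusted p under 0.05, Tap2 (−0.65 ± 0.24; FDR = 0.799) and Psmb8 (−0.89 ± 0.36; FDR = 0.799) were lower and 0 were higher, against 2.99% of all genes lower and 3.04% higher. Without CD M3, HFD M2 and HFD F2 the median was −0.49 and 1 of the 9 was at an unadjusted p under 0.05. In that fit 612 of 14311 genes were at that p in either direction. Leaving out single animals gave 1 to 7 of the 9 (7 without HFDmetf M3). Over all genes those fits gave 591 to 1258 genes at that p in either direction, against 849 with all animals. The share of all genes lower in the fit without HFDmetf M3 is not given here, so the 7 has no matched background. With the lymphocyte marker term the median was −0.31, 2 of the 9 were positive, and 0 were at an unadjusted p under 0.05.

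**Figure D3:**
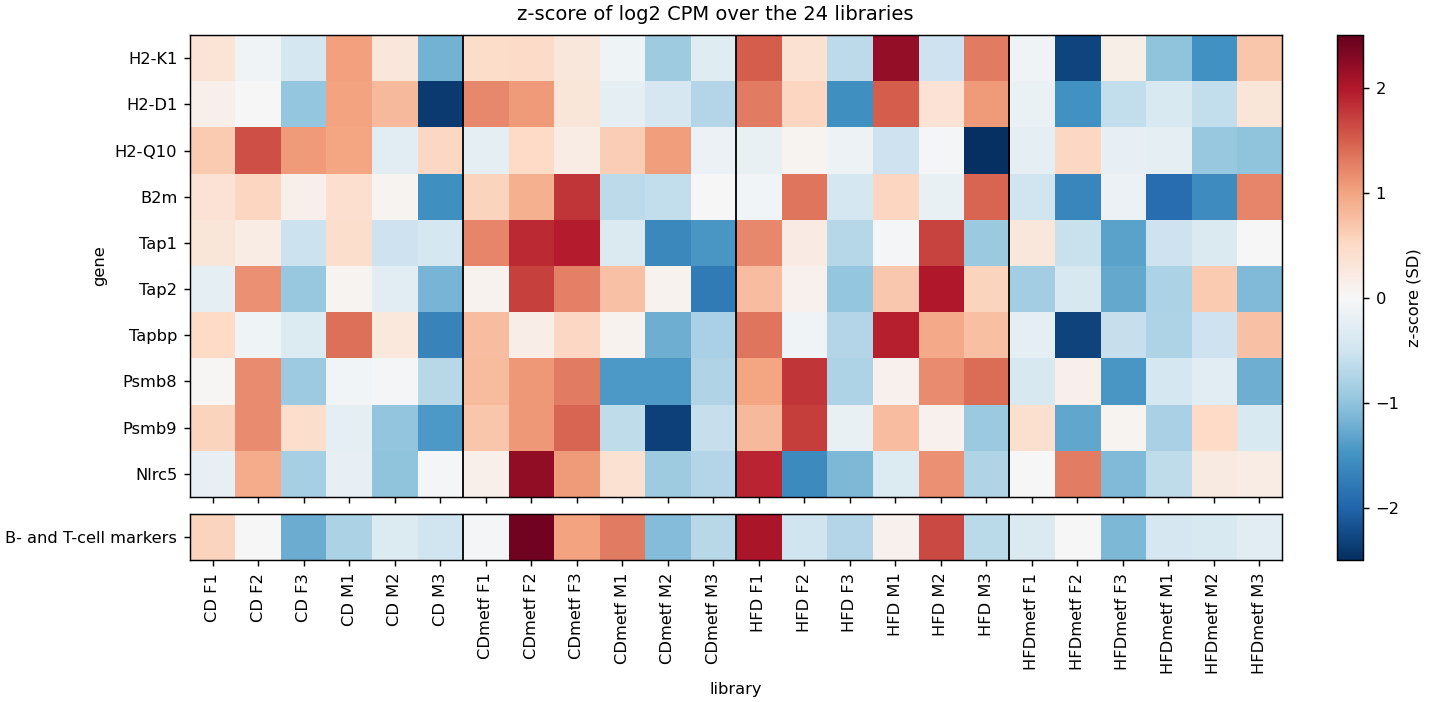
z-score of log2 CPM (colour, in SD) for the 10 genes (rows) in the 24 libraries (columns, vertical lines between groups), with the summed B- and T-cell marker level in the strip at the foot. The 3 CDmetf females are high for Tap1, B2m, Psmb8 and Psmb9 and the 3 CDmetf males low for Tap1, Psmb8 and Psmb9, and H2-Q10 follows a pattern of its own.

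The 9 genes other than H2-Q10 varied together to different degrees across animals. Over their 36 pairs, the correlation of log2 CPM over 24 libraries had a median of 0.51 and ranged from 0.003 to 0.88, as a description of libraries that also share groups and tissue composition. The lowest values were those of Nlrc5 with H2-K1 (0.003) and B2m (0.01), while Nlrc5 with Tap1 gave 0.70. H2-Q10 had correlations of −0.31 to 0.19 with the 9. Outside the set, the genes most like the mean z-score of the 9, among 9580 genes with a mean log2 CPM of at least 3, were Lyn (r = 0.85), a Src-family kinase of myeloid and B cells, the class I relative H2-T23 (r = 0.82), the chemokine Cx3cl1 (r = 0.81), Sema4b (r = 0.80) and Irak2 (r = 0.80). Spearman's rho for these 5 lay between 0.77 and 0.83. By Pearson r the genes most like H2-Q10 were the Paneth-cell alpha-defensins Defa21 (r = 0.76), Defa22 (r = 0.75) and Defa29 (r = 0.74), with Spearman's rho of only 0.36, 0.29 and 0.34. Mvd (r = 0.73, rho = 0.60) and Flywch1 (r = 0.73, rho = 0.72) followed, and Flywch1 had the highest rho of these 5. HFD M3, with 0 H2-Q10 reads, lay at −3.58 log2 CPM, and the next lowest library, HFDmetf M3, at −0.05.

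**Figure D4:**
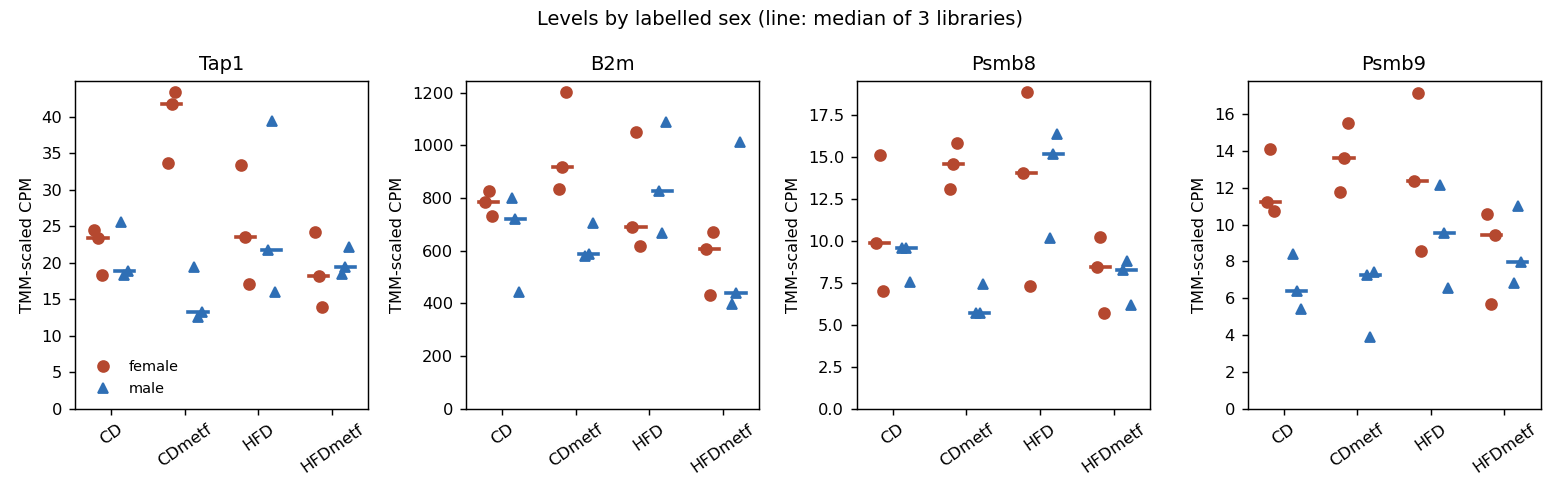
TMM-scaled CPM (y axes, from 0) of Tap1, B2m, Psmb8 and Psmb9 by group (x axes) and labelled sex, with 1 point per library and a line at the median of 3. In CDmetf the 3 females stand above the 3 males for all 4 genes, while in HFDmetf the sexes overlap. H2-K1, H2-D1 and Tapbp, not drawn here, separate in CDmetf as well, and the share of all genes that do so was not worked out.

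Between the sexes, over all groups, 0 of the 10 genes passed an FDR of 0.05, against 0.0071% of all genes tested (1 gene). At an unadjusted p under 0.05, 1 of the 10, Psmb9, was lower in males and 0 were higher, against 2.64% of all genes lower and 4.62% higher. Psmb9 ranged from 3.91 to 12.2 CPM in the 12 libraries labelled male (median 7.36) and from 5.69 to 17.1 in the 12 labelled female (median 11.5). The ranges overlapped, and males were lower in 11 of 12 comparisons of animals with the same group and number (logFC = −0.60 ± 0.17; FDR = 0.489). Without HFD M2 and HFD F2, the libraries that went against their labelled sex, Psmb9 differed by −0.60 ± 0.18 (FDR = 0.557), Tap1 by −0.47 ± 0.19 (FDR = 0.671) and Nlrc5 by −0.56 ± 0.25 (FDR = 0.725). These 3 were at an unadjusted p under 0.05, as were 1014 of all 15044 genes of that fit in either direction. Over all libraries H2-Q10 differed by −0.47 ± 0.29 (FDR = 0.703).

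The CDmetf group split by sex. Tap1 was 33.7 to 43.4 CPM in its females and 12.6 to 19.5 in its males. Psmb8 was 13.1 to 15.8 CPM in the females and 5.71 to 7.41 in the males, and B2m was 832 to 1203 against 580 to 706. H2-K1 (505 to 537 against 350 to 449), H2-D1 (378 to 461 against 300 to 337), Tapbp (217 to 249 against 158 to 213) and Psmb9 also separated. The sexes overlapped for Tap2, Nlrc5 and H2-Q10. The share of all genes that separate in this way was not worked out. A fit with 8 groups of diet, metformin and sex was chosen after this split was seen. Its male vs. female difference in CDmetf was −1.46 ± 0.28 for Tap1 (FDR = 0.0905), −1.19 ± 0.30 for Psmb8 (FDR = 0.233) and −1.13 ± 0.32 for Psmb9 (FDR = 0.313). Of all 14402 genes in that fit, 8.08% were at an unadjusted p under 0.05 between the sexes in CDmetf, against 1.53% in CD. Among the 9 genes other than H2-Q10 the count was 5 in CDmetf and 1 in CD. In CD the sexes of Tap1 overlapped, at 18.3 to 24.5 CPM in females and 18.3 to 25.6 in males. The difference between the sexes in the CDmetf vs. CD effect was 1.38 ± 0.39 for Tap1 (FDR = 0.912) and 0.99 ± 0.42 for Psmb8 (FDR = 0.918), so a sex difference in the effect did not pass the threshold. B-cell markers were 17.3, 368 and 105 CPM in CDmetf F1, F2 and F3 and 130, 9.92 and 11.7 CPM in CDmetf M1, M2 and M3. The part of lymphoid cells in this split was not tested.

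Other genes of the pathway, listed with earlier results known, were counted in the same fit. Of all 14076 genes tested, 6875 were higher in HFD vs. CD and 6983 in CDmetf vs. CD. The number lower was 6300 in HFDmetf vs. CDmetf, 6489 in HFDmetf vs. HFD, 6470 in the interaction and 6498 in males vs. females. Of 17 other class I heavy chains and relatives 14 were tested, and 0 passed an FDR of 0.05 in any comparison. In HFD vs. CD, 10 of the 14 were higher (median 0.09), led by Fcgrt (0.46 ± 0.17; FDR = 1.00), the neonatal Fc receptor, and H2-M3 (0.73 ± 0.29; FDR = 1.00), which presents formylated peptides. In HFDmetf vs. HFD, 9 of the 14 were lower (median −0.27), with H2-Q2 (−0.90 ± 0.47; FDR = 0.640) and H2-T23 (−0.38 ± 0.20; FDR = 0.640) first. In the interaction 12 of the 14 were lower (median −0.34), with H2-M3 (−0.99 ± 0.41; FDR = 0.799) and H2-Q6 (−1.12 ± 0.48; FDR = 0.799) first.

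The 17 other proteasome genes, which include the immunoproteasome subunit Psmb10 and the activator subunits Psme1 and Psme2, were all tested. In HFD vs. CD 17 of 17 were higher with a median of 0.18, and in the interaction 17 of 17 were lower with a median of −0.24. At an unadjusted p under 0.05 these counts were only 1 and 0, against 2.59% of all genes higher and 2.99% lower. In HFDmetf vs. HFD 15 of 17 were lower (median −0.13), with Psme1 (−0.43 ± 0.17; FDR = 0.640) and Psme2 (−0.38 ± 0.20; FDR = 0.640), the interferon-inducible PA28 subunits, first. Males were lower than females for 17 of 17, 4 of them at an unadjusted p under 0.05 against 2.64% of all genes, with HFD M2 and HFD F2 counted by their labels and Psma5 first (−0.29 ± 0.10; FDR = 0.556).

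All 11 genes of peptide trimming and loading were tested. In HFDmetf vs. HFD 9 of 11 were lower with a median of −0.05 and 0 at an unadjusted p under 0.05, and Lap3, an aminopeptidase, was first (−0.73 ± 0.38; FDR = 0.640). In CDmetf vs. CD 8 of 11 were higher (median 0.10), with Hspa5, the chaperone BiP, first (0.41 ± 0.14; FDR = 0.940). Of the 22 regulators of class I transcription, 21 were lower in HFDmetf vs. CDmetf (median −0.17, against 0.03 over all genes). At an unadjusted p under 0.05, 3 of the 22 were lower, against 4.04% of all genes. Stat2 (−0.49 ± 0.20; FDR = 0.606), a transcription factor of type I interferon signalling, was among them. In CDmetf vs. CD 19 of 22 were higher (median 0.11, against −0.002 over all genes). At an unadjusted p under 0.05, 2 of the 22 were higher, against 2.74% of all genes. The kinase Jak1 (0.25 ± 0.11; FDR = 0.940) was among them.

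Of 22 interferon-stimulated genes 18 were tested. In CDmetf vs. CD 16 of 18 were higher (median 0.44, against −0.002 over all genes), 6 of them at an unadjusted p under 0.05 against 2.74% of all genes, led by Irgm1 (0.52 ± 0.18; FDR = 0.940) and the chemokine Cxcl9 (1.16 ± 0.42; FDR = 0.940). In HFDmetf vs. CDmetf 18 of 18 were lower (median −0.55), 6 of them at an unadjusted p under 0.05, led by Igtp (−1.36 ± 0.40; FDR = 0.582) and Ifit1 (−1.48 ± 0.44; FDR = 0.582). Of all genes, 4.04% were lower at an unadjusted p under 0.05 in the latter. Both comparisons share the CDmetf libraries, in which the B-cell marker sum had a median of 60.9 CPM against 15.5 in CD and 17.95 in HFDmetf, and the part of lymphoid cells in these counts was not tested. In HFD vs. CD 6 of 18 were higher and 12 lower (median −0.13), and in HFDmetf vs. HFD 11 of 18 were lower (median −0.13) with 1 at an unadjusted p under 0.05, Irf7 (−0.69 ± 0.30; FDR = 0.640). In HFDmetf vs. HFD the 9 class I genes, with 5 at an unadjusted p under 0.05, and the interferon-stimulated list, with 1 of 18, are given side by side. Of all genes, 2.82% were lower at an unadjusted p under 0.05 in that comparison. The difference between the lists was not tested.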

How the data were processed

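Whole-tissue RNA of 24 libraries was sequenced by the authors. Per the labels and the study's methods, Trimmomatic 0.39 cut reads where mean quality fell under 25 in 5-base windows and dropped those under 30 bases, STAR 2.5.3a aligned them to GRCm38, and the deposited table holds raw read counts per gene; annotation release and strand setting are not given in the sources used here. All 55536 gene identifiers matched GENCODE M21. Rows for unmapped (median 20.7%), multi-mapping (5.19%), ambiguous (3.03%) and unassigned (16.3%) reads were left out.

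Counts were fitted with edgeR 4.0.16 (R 4.3.3; TMM, filterByExpr, quasi-likelihood test) on the 24 libraries together; the model held terms for group, for sex and for replicate number and left 17 residual degrees of freedom; FDR is Benjamini-Hochberg over 14076 genes. The fit was tested on simulated data. limma 3.58.1 and DESeq2 1.42.0 served as alternatives. Log2 CPM used a prior count of 1. Members, lists and tests were chosen with earlier results of these data known. Named genes were all members and at most the 2 genes with the smallest p per list and comparison; likeness took the 5 highest Pearson r. A listed gene that this rule names is not reported here. Animals are biological replicates, 1 per cage. Floors of 3 reads cover counting error only.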

Additional observations from a re-analysis of the deposited data

Results flagged for a closer look

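Of 40 groups of 6 values (10 genes in 4 groups), 3 held a library farther from the rest than Dixon's 95% critical value of 0.625 of the group's range allows, and chance gives about 1 in 20. B2m in CD M3 was 444 CPM, against 720 to 825 in the other CD libraries; this is the library in which 10 genes took 85.4% of the reads. Psmb8 in CD F2 was 15.1 CPM, with the next library at 9.87. H2-Q10 in HFDmetf F2 was 3.98 CPM, with the next at 2.00 and 7 reads behind the value.

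For the 9 genes other than H2-Q10, each group comparison was checked between the sexes, and the metformin difference between the diets, which gave 45 checks. In 6 of them, all between the sexes, the libraries of the first group lay to opposite sides of the mean of the second group in females and males. How often chance gives this with 3 libraries per sex, and its share over all genes, was not worked out. In CDmetf vs. CD, females minus males, the difference was 1.38 ± 0.39 for Tap1 (FDR = 0.912), 0.99 ± 0.42 for Psmb8 (FDR = 0.918), 0.50 ± 0.46 for H2-K1 (FDR = 0.946) and 0.51 ± 0.34 for H2-D1 (FDR = 0.934). In HFDmetf vs. CDmetf it was −1.55 ± 0.40 for Tap1 (FDR = 0.417) and −1.03 ± 0.46 for Psmb9 (FDR = 0.938). None of the 6 passed an FDR of 0.05 by edgeR, and both contrasts share the CDmetf libraries.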

How the results depend on the processing

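Of 2057 recomputed member values 2046 counted as kept, 1438 of them from fits without 1 animal, which was often outside the groups compared. Kept values held their direction and their side of the FDR threshold, which no member passed in the main fit. Main values within 1 SE of 0, and H2-Q10 between diet and metformin groups, had to move by less than 1 SE. Such small values could change sign, as Psmb9 did in HFDmetf vs. CDmetf (0.009 without CDmetf F3). The values that reversed did so with the lymphocyte marker term: Nlrc5 0.31 in HFDmetf vs. CDmetf, −0.21 in CDmetf vs. CD and 0.68 in the interaction, and Tap1 −0.10 in CDmetf vs. CD and 0.026 in the interaction. The cause was not tested. The other 6 began within 1 SE of 0, moved by more than 1 SE and crossed 0, so they changed the counts of signs given above. In HFD vs. CD these were B2m (−0.08 without CD M3, HFD M2 and HFD F2), Tap1 (−0.10 with the lymphocyte term) and Nlrc5 (−0.37 with that term, −0.12 without HFD F1). In HFDmetf vs. HFD Nlrc5 was 0.47 with that term and 0.19 without HFD F1. Genes past FDR 0.05 over the whole table numbered 0 in each diet and metformin comparison, with 652 to 1108 genes at an unadjusted p under 0.05. DESeq2 called 13 in HFD vs. CD, 4 in CDmetf vs. CD, 4 in the interaction and 22 between the sexes (against 1 by edgeR). The sex count was 15 with no filter on low counts, 8 without HFD M2 and HFD F2, 8 without those and CD M3 (chosen after seeing the data) and 3 with the lymphocyte term. Leaving out 1 animal gave 0 to 1 in HFD vs. CD and 1 to 8 between the sexes, 8 without HFD M2.

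Without the replicate block no gene passed the FDR threshold in a diet or metformin comparison. In HFDmetf vs. HFD 3 rather than 5 of the 9 genes were then lower at an unadjusted p under 0.05. Of all genes, 1.98% rather than 2.82% were lower at that p. Same-numbered libraries of different groups deviated together with a mean r of 0.13 (40 of 72 pairs over 0.1) and others with −0.06; the labels do not say that a number marks a block. H2-Q10 rests on 0 to 128 reads per library. H2-Q10 and Nlrc5 were not tested with at least 10 counts in every library.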
